A study of Mus musculus with 16 samples.

Results

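Whole brains of newborn mice sired by heated freeze-dried sperm were compared with brains of newborns sired by freeze-dried sperm that was not heated. The 8 arrays, 4 per group, were chosen by sample title from the 16 arrays of the series. All animals were C57BL/6 mice at postnatal day 1, and each array held total RNA of 1 brain. Freeze-drying was common to both groups, and the sperm of the heated group was additionally kept at 95 °C for 1 h. The other 8 arrays came from neonates of fresh sperm (4) and of freeze-dried sperm irradiated with X-rays at 5 Gy (4), and they entered the same fit. The comparison asks whether heating dried sperm left a trace in gene expression of the offspring brain. The 4 heated neonates have numbers in the labels that share all but their last part, and the meaning of the parts is not stated. Whether some of them shared a litter is therefore unknown. The p-values measure the spread between these animals, and siblings within a group would narrow that spread.

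Freeze-dried sperm cannot swim and is injected into oocytes, so it is the dried nucleus that contributes to the embryo. The newborn mouse brain is at a turning point: progenitors next to the ventricles still divide, neurons form synapses, astrocytes mature, and some cells of the ventricle wall become ependymal cells. Ependymal cells carry bundles of motile cilia whose beating moves cerebrospinal fluid. A motile cilium has a microtubule axoneme with dynein motors, radial spokes and a central pair, and its genes are switched on together by regulators such as Foxj1, Mcidas, Myb and the Rfx family.

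A level is the log2 signal of a gene minus the 75th percentile of its array, so 0 is that percentile, and differences are heated minus freeze-dried on the log2 scale. Neuronal genes were high, as the label brain calls for: Camk2b, a kinase of synapses, was at 4.90, 5.06, 4.89 and 5.12 in heated neonates 1 to 4. The arrays lay on 2 slides that were scanned on different days. All 4 freeze-dried arrays were on slide 1 and all 4 heated arrays on slide 2, and each slide also held 2 fresh and 2 irradiated arrays. Slide and heating therefore cannot be told apart in the direct contrast, and only the fresh and irradiated animals link the slides. The sexes also differed between the groups, judged from sex-linked genes. Ddx3y, a Y-linked RNA helicase, was at -7.51, -7.84, -7.87 and -3.10 in heated 1 to 4 and at -2.66, -2.52, -2.43 and -2.80 in freeze-dried 1 to 4. Xist, the RNA of the inactive X chromosome, was at -1.09, -1.25, -1.05 and -8.26 in heated 1 to 4 and at -8.21, -8.23, -8.52 and -8.34 in freeze-dried 1 to 4. Ddx3y was thus high and Xist low in all 4 freeze-dried neonates and in heated 4, and the reverse held in the other 3 heated neonates. Hoxb5, a gene of the hindbrain and spinal cord, was at 0.17, -7.72, 0.15 and -8.28 in heated 1 to 4 and at 0.26, -6.60, 0.59 and -0.93 in freeze-dried 1 to 4. Its level was far lower in heated 2, heated 4 and freeze-dried 2 (and in fresh 2) than in the remaining animals of their groups.

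**Figure D1:**
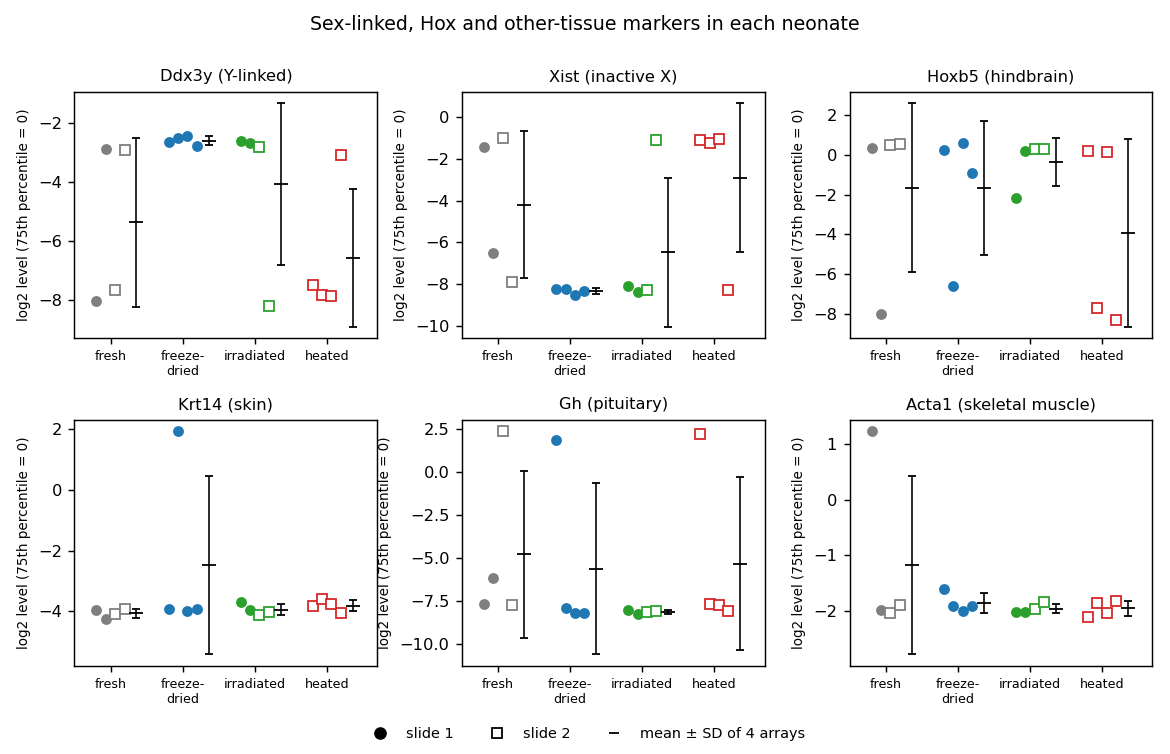
Log2 level (vertical axis, 0 is the 75th percentile of the array) of 6 markers in each of the 16 neonates by group, with filled circles for slide 1, open squares for slide 2, and the mean ± SD of 4 arrays as a bar. Ddx3y and Xist separate 3 of the 4 heated neonates from all freeze-dried ones, and Hoxb5 is low in 4 animals. Krt14 (skin) is high in freeze-dried 2 and Acta1 (muscle) in fresh 1. Gh (pituitary) is high in fresh 3, freeze-dried 1 and heated 1.

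Of 26477 genes and features tested with limma, 1051 passed an adjusted p of 0.05 (Benjamini-Hochberg, 3.97%), 670 rising (2.53%) and 381 falling (1.44%). Of 15993 tested genes with a RefSeq symbol 811 passed (5.07%), 548 that rose and 263 that fell, against 2.29% of features without one. At an unadjusted p under 0.05, 4465 of the 15993 differed. All members of the gene lists have a symbol, so shares over all genes and features are a low background for them. The differences were small: the median size among changed genes was 0.40, and 32 of the 1051 reached a 2-fold change. The groups did not overlap for 1026 of the 1051, so a lack of overlap adds little to a call. Over all tested genes the median difference was 0.020. With slide as a block in the fit, 0 genes passed (smallest adjusted p = 0.0818, 2092 genes at an unadjusted p under 0.05), all 1051 kept their sign, and their median size fell to 0.26. An unadjusted p under 0.05 with the block was found for 7.9% of all genes, for 29 of 71 spoke genes, 12 of 29 dynein genes, 33 of 51 interferon genes and 22 of 82 mitosis genes. Patterning factors held 25 of 59. Counts were lower in several other lists: 5 of 36 astrocyte, 1 of 19 oligodendrocyte, 4 of 61 imprinted, 3 of 49 chromatin and 6 of 77 repair genes. For chaperone, intraflagellar transport, meningeal and ribosomal protein genes they were 3 of 44, 1 of 42, 0 of 27 and 0 of 79. Every call below is lost with the slide block, so the medians of the lists are also given with the block.

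**Figure D2:**
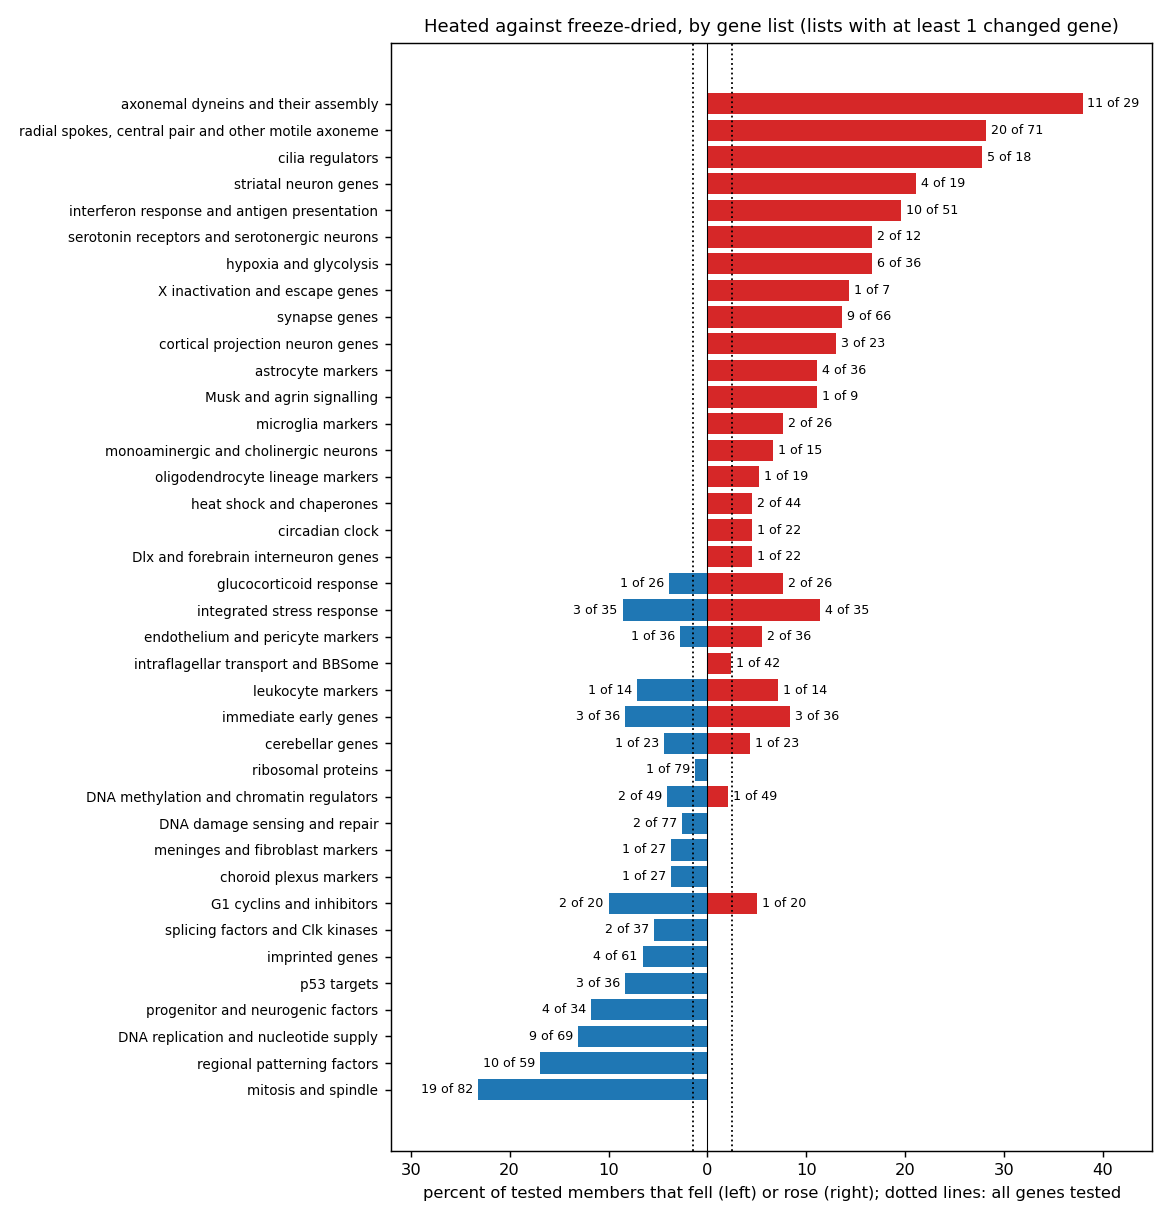
Percent of the tested members of each gene list (vertical axis) that rose (red, right) or fell (blue, left) in heated against freeze-dried neonates at an adjusted p under 0.05, with the counts beside the bars and dotted lines at the percentages over all genes tested (2.53 and 1.44). Motile cilium lists reach farthest to the right and the mitosis list farthest to the left. The dotted lines include features without a symbol, which passed less often.

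Genes of the motile axoneme were higher after heating. Of 29 tested genes for axonemal dyneins and the proteins that assemble them, 11 rose and 0 fell, with a median difference of 0.28. Of 71 tested genes for radial spokes, the central pair and other axonemal parts, 20 rose and 0 fell, with a median of 0.25. The groups did not overlap for 13 of the 29 and 33 of the 71 genes, against 20.5% of all tested genes. Genes that rose included Iqca, an ATPase of the nexin-dynein regulatory complex, Ccdc153, a marker of ependymal cells, and Tekt4, a filament protein of axonemal microtubules. Regulatory factor X proteins bind an X-box, searched here as GTNNCC and GNNAAC with 1 or 2 bases of any kind between them, on both strands, from 250 bases before to 50 bases after the gene start. An X-box was found in 3.01% of all 32851 RefSeq promoters of that length. Counted by gene, it was found in 4.09% of the 12629 tested genes with a promoter, in 21 of 86 motile axoneme genes (24.4%), and in 7 of the 28 of them that rose (25.0%). The stretches below show the X-box (capitals) of 3 genes that rose, from RefSeq promoters of GRCm38.p6, each 5′ to 3′ on the strand of its gene, for Iqca at chr1:90153493-90153566, minus strand, for Ccdc153 at chr9:44240495-44240568, plus strand and for Tekt4 at chr17:25471400-25471473, plus strand.
Iqca: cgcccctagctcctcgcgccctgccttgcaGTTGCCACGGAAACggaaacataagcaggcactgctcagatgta
Ccdc153: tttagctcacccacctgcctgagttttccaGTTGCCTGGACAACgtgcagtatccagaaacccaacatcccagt
Tekt4: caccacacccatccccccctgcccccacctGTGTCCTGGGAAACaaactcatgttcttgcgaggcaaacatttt
These 3 matches lie between 87 and 160 bases before the start, and a match describes the letters only.

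Iqca was at -2.58, -2.20, -2.66 and -2.39 in heated 1 to 4 and at -3.59, -3.58, -3.45 and -3.27 in freeze-dried 1 to 4. Every heated neonate lay above every freeze-dried one, by a mean of 1.01 ± 0.10 (SE, n = 4 and 4, adjusted p = 0.000932). Irradiated neonates 1 to 4 were at -3.12, -2.95, -3.06 and -2.84, between the other groups. Ccdc153 was at -1.55, -1.03, -1.50 and -1.07 in the heated and at -2.52, -2.40, -2.13 and -2.32 in the freeze-dried animals, a difference of 1.06 ± 0.13 (SE, n = 4 and 4, adjusted p = 0.00364). Its highest heated values were those of neonates 2 and 4, and the groups did not overlap. Crocc2, a relative of the rootlet protein rootletin, was at -2.38, -2.52, -2.78 and -2.50 against -3.77, -3.96, -3.72 and -3.45, a difference of 1.18 ± 0.15 (SE, n = 4 and 4, adjusted p = 0.00396). Heated and freeze-dried animals were again apart, and heated 3 was the lowest of its group. Among the motors, Dnali1, an inner-arm light chain, was at -1.68, -1.41, -1.72 and -1.38 in heated and at -2.20, -2.15, -2.13 and -2.23 in freeze-dried neonates, with a difference of 0.63 ± 0.088 (SE, n = 4 and 4, adjusted p = 0.00486). The freeze-dried animals were nearly alike for this gene. Wdr63, an inner-arm assembly factor, rose by 0.67 (adjusted p = 0.00486), and Zmynd10, which helps to preassemble dynein arms, by 0.52 (adjusted p = 0.00903). The heavy chains Dnah5, Dnah6 and Dnah9 rose by 0.46 (adjusted p = 0.0343), 0.62 (adjusted p = 0.0126) and 0.35 (adjusted p = 0.0281). Morn5 and Meig1, both known from cilia and sperm tails, rose by 0.60 (adjusted p = 0.00483) and 0.62 (adjusted p = 0.00486). Lrrc34, which belonged to none of the lists, shared the smallest adjusted p with Iqca: it was at -3.03, -3.08, -3.03 and -3.38 in heated and -4.05, -4.03, -3.88 and -4.08 in freeze-dried neonates, a difference of 0.88 ± 0.085 (SE, n = 4 and 4, adjusted p = 0.000932). With the slide block the differences of Iqca, Ccdc153, Crocc2, Dnali1 and Lrrc34 were 0.96, 1.25, 0.82, 0.74 and 0.78, and the median over the dynein and the spoke lists was 0.21 and 0.24. Within slide 2 alone, the spoke list was higher in heated than in fresh and irradiated animals by medians of 0.27 and 0.15, while the slide 2 minus slide 1 difference was 0.039 within the fresh group and -0.037 within the irradiated group.

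The regulators of multiciliated cells moved in part. Of 18 tested, 5 rose and 0 fell, and the list median was -0.0045 (0.049 with the slide block). Deup1, which builds the structures that mass-produce centrioles in multiciliated cells, was at -0.16, -0.080, -0.33 and -0.091 in heated and at -1.12, -1.20, -0.74 and -0.79 in freeze-dried neonates. No heated animal overlapped a freeze-dried one, and the difference was 0.80 ± 0.11 (SE, n = 4 and 4, adjusted p = 0.00486). Foxn4, a transcription factor of multiciliated progenitors, was at -2.18, -1.92, -2.34 and -2.11 against -2.96, -3.15, -2.76 and -2.76, a difference of 0.77 ± 0.12 (SE, n = 4 and 4, adjusted p = 0.00903), and Ccno, a cyclin needed for centriole amplification, rose by 0.65 (adjusted p = 0.0121). Myb and Rfx3 rose by 0.36 (adjusted p = 0.0121) and 0.20 (adjusted p = 0.0410). Foxj1, the master regulator of motile cilia, was at -0.094, -0.047, -0.21 and 0.038 in heated and -0.28, -0.60, -0.23 and -0.44 in freeze-dried neonates, without overlap, and its difference of 0.31 ± 0.085 (SE, n = 4 and 4, adjusted p = 0.0590) missed the threshold. Mcidas, which starts the multiciliated programme, differed by 0.19 (adjusted p = 0.426). Intraflagellar transport and the BBSome serve all cilia, motile or not. Of 42 tested genes of that list 1 rose (Traf3ip1, 0.28 (adjusted p = 0.0442)) and 0 fell, with a median of -0.012 (0.033 with the slide block). An X-box was present in 7 of 37 transport genes with a promoter (18.9%).

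**Figure D3:**
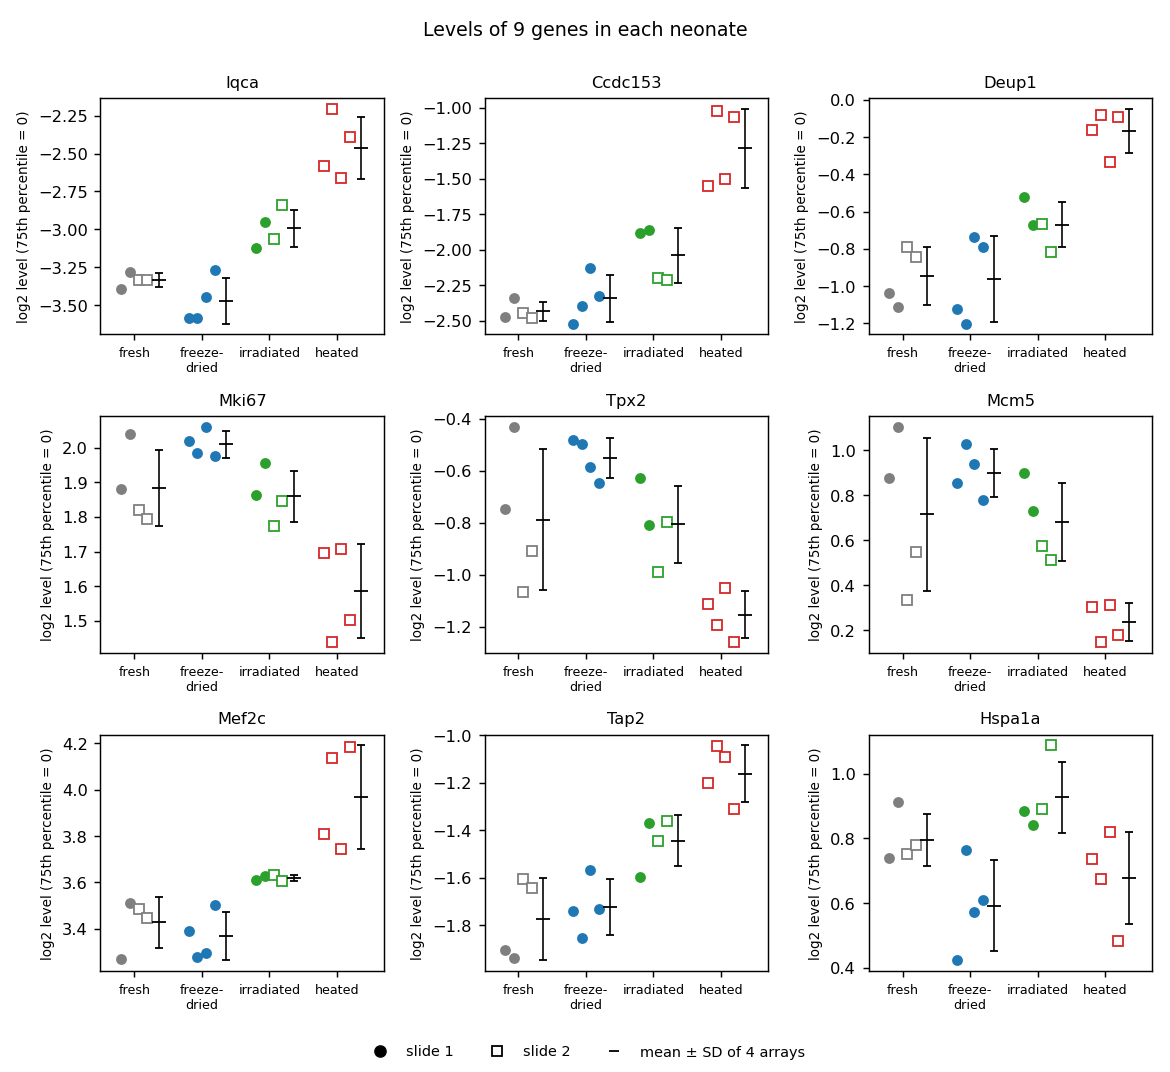
Log2 level (vertical axis, 0 is the 75th percentile of the array) of 9 genes in each of 16 neonates by group, with filled circles for slide 1, open squares for slide 2 and the mean ± SD of 4 arrays as a bar. Heated neonates lie above all freeze-dried neonates for Iqca, Ccdc153, Deup1, Mef2c and Tap2 and below them for Mki67, Tpx2 and Mcm5, while the groups overlap for Hspa1a.

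Genes of mitosis were lower after heating. Of 82 tested genes for the spindle, kinetochore and cytokinesis, 19 fell and 0 rose, 76 had a lower mean in the heated group, against 45.9% of all tested genes, and the median difference was -0.25. The groups did not overlap for 50 of the 82. Over all tested genes, 20.5% did not overlap and 1.44% fell. Promoters of mitotic genes often carry a cell cycle homology region, searched here as TTTGAA or TTCGAA on both strands, which occurred in 19.2% of all RefSeq promoters. Counted by gene, it occurred in 16.8% of tested genes with a promoter, in 50 of 70 mitosis genes (71.4%) and in 15 of the 17 that fell (88.2%). The CCAAT box, searched as CCAAT on both strands, was found in 37.4% of all promoters, in 42.5% of tested genes and in 50 of the 70. Of the 41 mitosis genes with both motifs, 2 had matches that shared a base. The element (capitals) is shown for 3 genes that fell, Mki67 at chr7:135716442-135716525, minus strand, Cdc20 at chr4:118437344-118437391, minus strand and Kif15 at chr9:122951032-122951080, plus strand, 5′ to 3′ on the strand of the gene in GRCm38.p6.
Mki67: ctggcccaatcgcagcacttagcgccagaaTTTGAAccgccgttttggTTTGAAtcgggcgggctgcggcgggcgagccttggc
Cdc20: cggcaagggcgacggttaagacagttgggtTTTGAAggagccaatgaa
Kif15: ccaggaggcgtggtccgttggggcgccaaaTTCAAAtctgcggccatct
In Mki67 the element occurs on 2 places of the stretch, and in Kif15 it reads on the opposite strand.

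Mki67, a protein of the surface of mitotic chromosomes and a marker of dividing cells, was at 1.70, 1.44, 1.71 and 1.50 in heated 1 to 4 and at 2.02, 1.98, 2.06 and 1.98 in freeze-dried 1 to 4. The freeze-dried animals were nearly alike, all heated ones were lower, and the difference was -0.42 ± 0.072 (SE, n = 4 and 4, adjusted p = 0.0113). Tpx2, which nucleates spindle microtubules, was at -1.11, -1.19, -1.05 and -1.26 in heated and -0.48, -0.50, -0.58 and -0.65 in freeze-dried neonates, a difference of -0.60 ± 0.11 (SE, n = 4 and 4, adjusted p = 0.0155). Knl1, a kinetochore scaffold, was at -1.87, -2.10, -1.84 and -1.96 against -1.41, -1.39, -1.58 and -1.47, a difference of -0.48 ± 0.089 (SE, n = 4 and 4, adjusted p = 0.0139). Cdc20, which activates the anaphase-promoting complex, was at 1.09, 0.98, 1.00 and 0.99 against 1.49, 1.48, 1.29 and 1.25, a difference of -0.36 ± 0.072 (SE, n = 4 and 4, adjusted p = 0.0180). For all 4 genes the groups were apart, and heated 2 was the lowest of the 8 animals for Mki67, Knl1 and Cdc20. Sgo1, which protects sister chromatid cohesion, fell by 0.45 (adjusted p = 0.0137), and the centromeric histone Cenpa by 0.41 (adjusted p = 0.0128). The kinase Bub1 and the motor Kif22 fell by 0.44 and 0.51 (adjusted p = 0.0270 and 0.0312). Ska1, a kinetochore protein named by its small p and not by a list, was at -1.90, -2.07, -2.02 and -2.19 against -1.44, -1.38, -1.44 and -1.60, a difference of -0.58 ± 0.085 (SE, n = 4 and 4, adjusted p = 0.00574). With the slide block the mitosis list had a median of -0.20, and Mki67, Tpx2, Knl1 and Ska1 differed by -0.30, -0.32, -0.27 and -0.57. Within slide 2 the list was lower in heated than in fresh and irradiated neonates by medians of -0.17 and -0.16, and slide 2 was below slide 1 within the fresh and the irradiated group as well, by medians of -0.071 and -0.027.

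Replication genes went the same way. Of 69 tested genes, 9 fell and 0 rose, with a median of -0.19 (-0.15 with the slide block). Mcm5, a subunit of the replicative helicase, was at 0.30, 0.15, 0.31 and 0.18 in heated and 0.86, 1.03, 0.94 and 0.78 in freeze-dried neonates. The groups were far apart, by -0.66 ± 0.14 (SE, n = 4 and 4, adjusted p = 0.0214), yet fresh neonates 3 and 4 on slide 2 (0.34 and 0.55) were also lower than fresh 1 and 2 on slide 1 (0.88 and 1.10), and with the slide block the difference was -0.25. Rrm1, the large subunit of ribonucleotide reductase, was at 0.65, 0.53, 0.63 and 0.52 against 0.93, 1.04, 0.88 and 0.81, a difference of -0.34 ± 0.067 (SE, n = 4 and 4, adjusted p = 0.0186). Cyclin A2 (Ccna2) and the polymerase subunit Pold1 fell by 0.40 and 0.52 (adjusted p = 0.0266 and 0.0303). The E2F site, searched as TTTGGCGC or TTTCGCGC on both strands, was found in 0.81% of all promoters and, counted by gene, in 1.60% of tested genes with a promoter and 15 of 56 replication genes (26.8%). Among 20 genes for G1 cyclins and cell cycle inhibitors (median -0.11, or -0.12 with the slide block), 1 rose and 2 fell: the proto-oncogene Myc by 0.42 (adjusted p = 0.0126), the antiproliferative gene Btg2 by -0.40 (adjusted p = 0.0250) and the inhibitor Cdkn1c by -0.27 (adjusted p = 0.0326). Cdkn1a, the p53-driven inhibitor p21, was at 0.72, 0.69, 0.80 and 0.66 in heated and 0.67, 0.93, 0.90 and 0.71 in freeze-dried neonates, which overlapped (-0.089 ± 0.074 (SE, n = 4 and 4, adjusted p = 0.497), 95% interval -0.25 to 0.071).

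Of 34 progenitor and neurogenic genes, 4 fell and 0 rose, with a median of -0.12, or -0.14 with the slide block. Eomes, which marks intermediate progenitors of the cortex, was at -1.32, -1.27, -1.41 and -1.16 in heated and -0.61, -0.37, -0.95 and -0.76 in freeze-dried neonates, a difference of -0.62 ± 0.14 (SE, n = 4 and 4, adjusted p = 0.0286). Insm1, which promotes the formation of such progenitors, was at 2.77, 2.74, 2.66 and 2.75 against 3.14, 3.27, 3.03 and 3.14, a difference of -0.42 ± 0.094 (SE, n = 4 and 4, adjusted p = 0.0289). For both genes every heated neonate was below every freeze-dried one. Tead2, the partner of Yap in growth control, fell by 0.62 (adjusted p = 0.0191), and Igfbpl1 by 0.35 (adjusted p = 0.0382). The stem cell genes Nes and Vim differed by -0.26 (adjusted p = 0.127) and -0.26 (adjusted p = 0.0548).

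Genes for regional identity were lower in the heated group, and part of the difference followed 2 animals. Of 59 patterning factors, 10 fell and 0 rose, with a median of -0.29 (-0.33 with the slide block). Their mean deviation from the average of all arrays was 0.014, -0.63, -0.0038 and -0.47 in heated 1 to 4 and 0.20, 0.078, 0.098 and 0.086 in freeze-dried 1 to 4. Heated 2 and 4, the animals with low Hox genes, were thus far below heated 1 and 3. Otx2, a forebrain, midbrain and choroid plexus factor, did not follow them: it was at 1.49, 1.42, 1.46 and 1.51 in heated and 1.93, 2.03, 1.82 and 1.81 in freeze-dried neonates, a difference of -0.43 ± 0.073 (SE, n = 4 and 4, adjusted p = 0.0113). Irx2 was at -0.22, -0.83, -0.076 and -0.45 against 0.28, 0.40, 0.37 and 0.17, lowest in heated 2 and 4, with a difference of -0.70 ± 0.13 (SE, n = 4 and 4, adjusted p = 0.0142). En2, a gene of the midbrain and cerebellum, was at 1.27, 0.61, 1.28 and 0.85 against 1.50, 1.70, 1.58 and 1.53 and showed the same order (-0.57 ± 0.14 (SE, n = 4 and 4, adjusted p = 0.0372)). Zic2, an early neural factor, was at -1.20, -1.74, -1.18 and -1.41 against -0.66, -0.87, -0.44 and -0.34, a difference of -0.80 ± 0.14 (SE, n = 4 and 4, adjusted p = 0.0122). Ebf1 and Ebf2, factors of differentiating neurons, fell by 0.62 and 0.82 (adjusted p = 0.0196 and 0.0165). The 13 tested Hox genes had a median of -1.80, or -3.54 with the slide block, and 0 passed (0 also at an unadjusted p under 0.05), with values spread over several log2 units within each group. Cerebellar genes showed 1 rise (Itpr1, 0.24 (adjusted p = 0.0332)) and 1 fall (En2) of 23 tested (median -0.10, or -0.18 with the slide block), and the Purkinje cell gene Pcp2 differed by -1.96 (adjusted p = 0.172). The mean deviation of the cerebellar list was 0.13, -0.70, 0.14 and -0.57 in heated 1 to 4. It was 0.12, 0.079, 0.13 and 0.065 in freeze-dried 1 to 4, so only heated 2 and 4 were low. How much hindbrain tissue each sample held was not tested beyond these levels.

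Genes of differentiated neurons were higher in part after heating. Of 66 synapse genes, 9 rose and 0 fell, 53 had a higher mean in the heated group, against 54.1% of all tested genes, and the median was 0.16 (0.12 with the slide block). Camk2b was at 4.90, 5.06, 4.89 and 5.12 in heated and 4.54, 4.57, 4.60 and 4.62 in freeze-dried neonates, a difference of 0.41 ± 0.070 (SE, n = 4 and 4, adjusted p = 0.0113). The vesicular glutamate transporter Slc17a7 was at -1.86, -1.31, -1.95 and -1.43 against -2.28, -2.33, -2.24 and -1.95, and freeze-dried 4 lay just within the heated range (0.56 ± 0.14 (SE, n = 4 and 4, adjusted p = 0.0458)). The AMPA receptor subunit Gria3, the calcium sensor of vesicle release Syt1, the sodium channel Scn2a and the scaffold Dlgap1 rose by 0.29 (adjusted p = 0.0186), 0.29 (adjusted p = 0.0270), 0.27 (adjusted p = 0.0281) and 0.32 (adjusted p = 0.0285). Of 23 cortical projection neuron genes 3 rose and 0 fell, with a median of 0.056, or 0.019 with the slide block. The list mean, as a deviation from the average of all arrays, was -0.055, 0.20, -0.065 and 0.21 in heated 1 to 4. It was -0.059, 0.042, -0.073 and -0.026 in freeze-dried 1 to 4. Heated 1 and 3 thus lay within the freeze-dried range, and heated 2 and 4, the animals with low Hox genes, lay above it. Mef2c, a factor of neuronal maturation, was at 3.81, 4.14, 3.75 and 4.18 against 3.39, 3.28, 3.30 and 3.50, a difference of 0.60 ± 0.095 (SE, n = 4 and 4, adjusted p = 0.00866). Nrgn, a calmodulin-binding protein of dendrites, was at 1.03, 1.57, 1.07 and 1.34 against 0.33, 0.55, 0.65 and 0.78, a difference of 0.68 ± 0.16 (SE, n = 4 and 4, adjusted p = 0.0312). In both genes, as in Camk2b and Slc17a7, heated 2 and 4 were the highest of the 8 animals. Striatal genes showed 4 rises of 19 tested with a median of 0.24, or 0.19 with the slide block. Among them, the receptor genes Gpr6 and Adora2a rose by 0.61 (adjusted p = 0.00911) and 0.42 (adjusted p = 0.0455), and Rgs9, which ends receptor signals, by 0.34 (adjusted p = 0.0171). Among 12 serotonin genes, the receptors Htr1f and Htr1a rose by 1.01 (adjusted p = 0.0247) and 0.37 (adjusted p = 0.0482), and the list median of 0.26 dropped to 0.062 with the slide block. Dlx4 was the only riser among 22 forebrain interneuron genes (1.42 ± 0.17 (SE, n = 4 and 4, adjusted p = 0.00364)), whose median was 0.0035, or 0.0014 with the slide block, and its relatives Dlx1, Dlx5 and Dlx6 differed by -0.27 (adjusted p = 0.166), 0.61 (adjusted p = 0.125) and -0.20 (adjusted p = 0.488).

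Outside the lists, Cck, a peptide made by cortical neurons, was at 3.99, 4.26, 3.97 and 4.16 in heated and 3.51, 3.45, 3.60 and 3.55 in freeze-dried neonates, a difference of 0.57 ± 0.076 (SE, n = 4 and 4, adjusted p = 0.00434). Ptk2b, a calcium-responsive tyrosine kinase of forebrain neurons, was at 1.93, 2.38, 1.96 and 2.28 against 1.11, 1.27, 1.35 and 1.51, a difference of 0.83 ± 0.11 (SE, n = 4 and 4, adjusted p = 0.00396). Ddn, a protein of dendrites, was at -0.63, -0.25, -0.60 and -0.30 against -1.31, -1.23, -1.19 and -1.10, a difference of 0.76 ± 0.095 (SE, n = 4 and 4, adjusted p = 0.00364). For all 3 genes heated 2 and 4 were the highest animals. With the slide block Cck, Ptk2b and Ddn differed by 0.51, 0.82 and 0.82. The potassium channel subunit Kcns3 and Rgs7bp, which anchors a regulator of G protein signals, rose by 0.54 (adjusted p = 0.00364) and 0.51 (adjusted p = 0.00434). On the falling side, the RNA-binding proteins Igf2bp2 and Igf2bp3, which are abundant in embryonic tissue, were lower. Igf2bp3 was at 0.36, 0.24, 0.28 and 0.15 against 0.63, 0.83, 0.64 and 0.65 (-0.43 ± 0.075 (SE, n = 4 and 4, adjusted p = 0.0117)), and Igf2bp2 was at -1.43, -1.40, -1.48 and -1.50 against -1.08, -0.72, -0.94 and -0.99 (-0.52 ± 0.093 (SE, n = 4 and 4, adjusted p = 0.0126)). Genes outside the lists were chosen for a small p and no overlap between the groups, so their separation follows from the choice. Bnc2, a zinc finger protein, was at -2.49, -2.60, -2.55 and -2.30 against -1.97, -2.04, -2.07 and -1.95, a difference of -0.48 ± 0.064 (SE, n = 4 and 4, adjusted p = 0.00434). Mxd3, a Max partner expressed in dividing cells, and Lrch2 fell by 0.46 and 0.34 (adjusted p = 0.0117 and 0.0121).

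**Figure D4:**
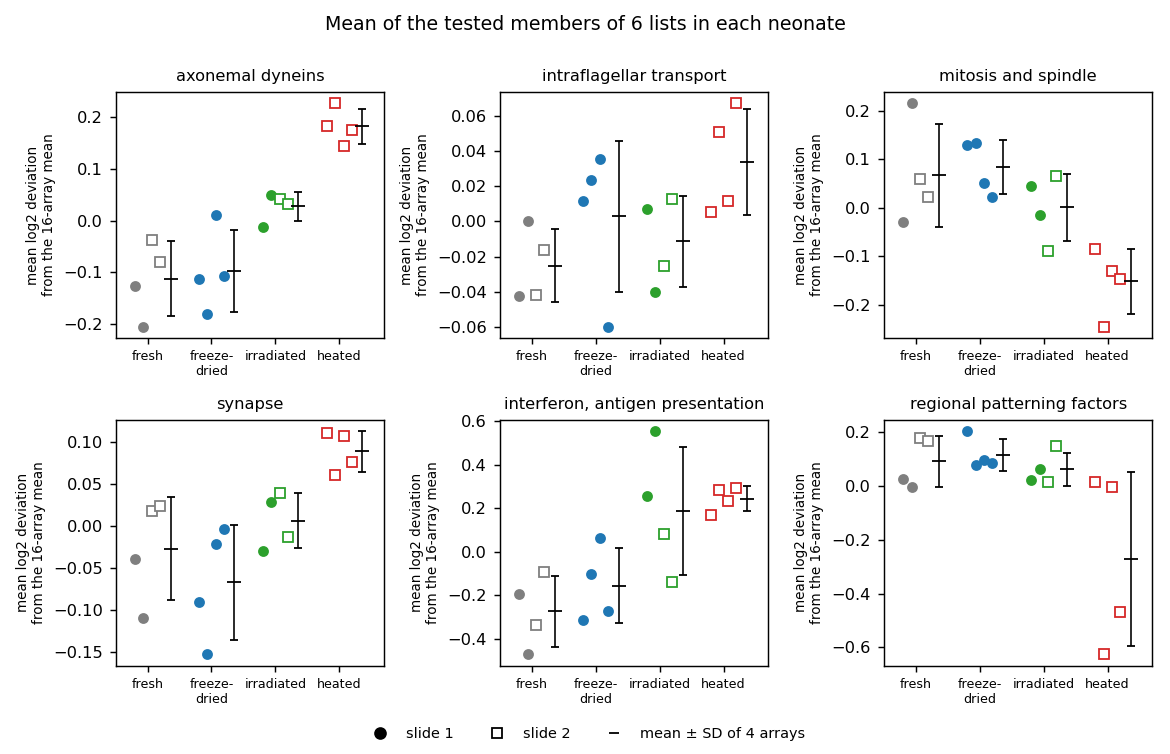
Mean over the tested members of 6 lists of the log2 deviation from the average of all 16 arrays (vertical axis) in each neonate by group, with filled circles for slide 1, open squares for slide 2 and the mean ± SD of 4 arrays as a bar. Heated neonates are above all freeze-dried ones for dynein, synapse and interferon genes and below them for mitosis, and heated 2 and 4 (-0.63 and -0.47) are the lowest for patterning factors.

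Glial genes were higher in part. Of 36 astrocyte markers, 4 rose and 0 fell, with a median of 0.21 (0.090 with the slide block). Gfap, the intermediate filament of astrocytes, was at -0.17, -0.26, -0.038 and -0.33 in heated and -1.16, -1.29, -0.48 and -1.01 in freeze-dried neonates, a difference of 0.78 ± 0.19 (SE, n = 4 and 4, adjusted p = 0.0375). Freeze-dried 3 was the highest of its group and still below all heated animals. Slc1a2, the main glutamate transporter, was at -0.67, -0.87, -0.78 and -0.81 against -1.19, -1.25, -1.41 and -1.03 (0.44 ± 0.11 (SE, n = 4 and 4, adjusted p = 0.0402)), and Mlc1 rose by 0.42 (adjusted p = 0.0384). Fresh neonates of slide 2 exceeded those of slide 1 by a median of 0.28 in this list. Of 19 oligodendrocyte genes (median 0.12, or 0.11 with the slide block) 1 rose, Pdgfra, the receptor of their precursors, at 1.72, 1.75, 1.76 and 1.77 against 1.50, 1.30, 1.60 and 1.38 (0.31 ± 0.080 (SE, n = 4 and 4, adjusted p = 0.0470)). Of 26 microglia genes (median 0.080, or 0.14 with the slide block) the protease Ctss and the receptor Trem2 rose by 0.26 (adjusted p = 0.0423) and 0.28 (adjusted p = 0.0424), while Cx3cr1 and Csf1r differed by 0.31 (adjusted p = 0.0894) and 0.30 (adjusted p = 0.0820). In 36 vascular genes (median 0.060, or 0.11 with the slide block), the VEGF receptors Kdr and Flt1 rose by 0.29 (adjusted p = 0.0384) and 0.41 (adjusted p = 0.0442), and Mfsd2a, a lipid transporter of the blood-brain barrier, fell by 0.35 (adjusted p = 0.0491). Whole brains cannot show whether the number of cells of a type or the RNA per cell differed.

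Interferon and antigen presentation genes were nearly all higher in the heated group. Of 51 tested, 48 had a higher mean, 10 rose and 0 fell, and the median was 0.34 (0.47 with the slide block). Tap2, which carries peptides to class I molecules, was at -1.20, -1.04, -1.09 and -1.31 in heated and -1.74, -1.85, -1.57 and -1.73 in freeze-dried neonates, a difference of 0.56 ± 0.093 (SE, n = 4 and 4, adjusted p = 0.0104). The class I gene H2-K1 was at 0.94, 1.04, 1.03 and 1.12 against 0.69, 0.65, 0.61 and 0.57, a difference of 0.40 ± 0.083 (SE, n = 4 and 4, adjusted p = 0.0214). Oas1a, a sensor of double-stranded RNA, was at -1.03, -1.10, -1.11 and -1.30 against -2.23, -2.20, -1.75 and -2.24, with freeze-dried 3 above the rest of its group but below all heated animals (0.97 ± 0.19 (SE, n = 4 and 4, adjusted p = 0.0165)). Tap1, the proteasome subunit Psmb9 and the receptor-transporting protein Rtp4 rose by 0.36 (adjusted p = 0.0193), 0.44 (adjusted p = 0.0334) and 0.57 (adjusted p = 0.0295). The list mean was 0.17, 0.28, 0.23 and 0.29 in heated 1 to 4, -0.32, -0.10, 0.063 and -0.27 in freeze-dried 1 to 4 and 0.26, 0.55, 0.080 and -0.14 in irradiated 1 to 4. Heated neonates were thus above all freeze-dried ones, and irradiated 2 was above every heated one. Against the irradiated group the median difference of the list was 0.041 over both slides and 0.28 within slide 2, and inside the irradiated group the slide 2 minus slide 1 median was -0.34.

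Genes of oxygen sensing and glycolysis rose in 6 of 36 cases, and 0 fell (median 0.11, and 0.12 with the slide block). Car9, a hypoxia-inducible carbonic anhydrase, was at -3.75, -3.23, -3.76 and -3.72 in heated and -4.85, -4.87, -4.14 and -4.55 in freeze-dried neonates, a difference of 0.98 ± 0.17 (SE, n = 4 and 4, adjusted p = 0.0113). Adm, which encodes the vasodilator adrenomedullin, was at -1.51, -1.02, -1.22 and -1.61 against -1.90, -1.73, -2.39 and -2.28 and -2.24, -2.38, -2.70 and -2.43 in irradiated animals (0.73 ± 0.16 (SE, n = 4 and 4, adjusted p = 0.0250)). Both genes were higher in all 4 heated than in all 4 freeze-dried animals, and Car9 was highest in heated 2. Pdk1, which diverts pyruvate from mitochondria, Ndrg1, Aldoa and Ldha rose by 0.40 (adjusted p = 0.0437), 0.34 (adjusted p = 0.0373), 0.22 (adjusted p = 0.0382) and 0.19 (adjusted p = 0.0434). All 22 circadian clock genes had a higher mean in the heated group, with a median of 0.17. With the slide block 17 of the 22 were higher and the median was 0.095, and fresh neonates of slide 2 exceeded those of slide 1 by 0.094. Of these genes 1 rose: Ciart, a repressor of the clock, was at -4.62, -4.13, -4.33 and -4.34 against -5.28, -4.91, -4.91 and -5.06 (0.68 ± 0.11 (SE, n = 4 and 4, adjusted p = 0.00903)). The clock outputs Dbp and Tef differed by 0.21 (adjusted p = 0.0884) and 0.33 (adjusted p = 0.0834). The hour at which each brain was taken is not given in the labels. Of 26 glucocorticoid response genes (median 0.11, or 0.014 with the slide block), Pdk4 and Klf9 rose by 0.41 (adjusted p = 0.0191) and 0.48 (adjusted p = 0.0285) and Hif3a fell by 0.37 (adjusted p = 0.0489), while Per1 and Tsc22d3 differed by 0.19 (adjusted p = 0.121) and 0.23 (adjusted p = 0.159).

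Of the chaperone, DNA repair and p53 target genes, 4.55%, 2.60% and 8.33% passed the test. The share was 3.97% over all genes and features and 5.07% over tested genes with a symbol. Of 44 chaperone genes 2 rose and 0 fell, with a median of -0.024, or -0.041 with the slide block. At an unadjusted p under 0.05, 15 of the 44 differed, against 23.9% of all tested genes, and the groups did not overlap for 15, against 20.5% of all. Hspa1a, the inducible Hsp70 of heat shock, was at 0.74, 0.67, 0.82 and 0.48 in heated and 0.42, 0.76, 0.57 and 0.61 in freeze-dried neonates. The groups overlapped, with a difference of 0.086 ± 0.086 (SE, n = 4 and 4, adjusted p = 0.577) and a 95% interval of -0.099 to 0.27. Hspa2, a testis-rich Hsp70 that is also made in brain, was at -0.75, -0.62, -0.68 and -0.65 against -1.17, -1.09, -1.02 and -1.19 without overlap (0.44 ± 0.062 (SE, n = 4 and 4, adjusted p = 0.00486)), and the co-chaperone Dnaja4 rose by 0.40 (adjusted p = 0.0316). Of 77 genes for sensing and repairing DNA damage, 2 fell and 0 rose, among them the glycosylase Neil3, which fell by 0.30 (adjusted p = 0.0404). The median of the repair list was -0.077, or -0.049 with the slide block, 28 of its genes differed at an unadjusted p under 0.05, and the groups did not overlap for 26. Of 36 p53 targets, 3 fell and 0 rose, with a median of -0.087, or -0.082 with the slide block. Sesn1 was at 1.65, 1.58, 1.55 and 1.60 against 1.87, 1.85, 1.93 and 1.80 (-0.27 ± 0.053 (SE, n = 4 and 4, adjusted p = 0.0185)), and Sesn2, a stress sensor of nutrient signalling, was at -0.34, -0.45, -0.34 and -0.59 against -0.033, -0.059, 0.015 and -0.015 (-0.41 ± 0.075 (SE, n = 4 and 4, adjusted p = 0.0132)). Trp53 differed by -0.44 (adjusted p = 0.0595). Of 35 genes of the integrated stress response (median 0.045, or -0.011 with the slide block), 4 rose and 3 fell. Atf3 was at -3.96, -4.46, -3.96 and -3.98 in heated, -3.53, -3.15, -3.37 and -3.24 in freeze-dried and -3.15, -2.96, -3.12 and -2.87 in irradiated neonates, lowest in heated 2, a difference of -0.77 ± 0.15 (SE, n = 4 and 4, adjusted p = 0.0167). Cth, Cbs and the amino acid carrier Slc7a3 rose by 0.52 (adjusted p = 0.0125), 0.39 (adjusted p = 0.0286) and 0.48 (adjusted p = 0.0122). Of 36 immediate early genes (median 0.024, or -0.089 with the slide block), 3 rose and 3 fell, Egr4 and Nr4a2 rising by 0.72 (adjusted p = 0.0415) and 0.46 (adjusted p = 0.0117) and Ier2 falling by 0.36 (adjusted p = 0.0165).

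Imprinted genes keep a memory of the parent of origin, and sperm DNA carries their paternal marks. Of 61 tested, 4 fell and 0 rose, with a median of -0.068, or -0.051 with the slide block. The changed share was 6.56%, close to the 5.07% of all tested genes with a symbol. In the chromatin and splicing lists below it was 6.12% and 5.41%, also close to that share. H19, a maternally expressed RNA, was at 3.87, 3.94, 3.92 and 3.89 in heated and 4.44, 4.31, 4.14 and 4.21 in freeze-dried neonates, a difference of -0.37 ± 0.082 (SE, n = 4 and 4, adjusted p = 0.0273). Cdkn1c, also expressed from the maternal copy, was at 4.57, 4.57, 4.54 and 4.57 against 4.95, 4.90, 4.77 and 4.71, a difference of -0.27 ± 0.063 (SE, n = 4 and 4, adjusted p = 0.0326). For both genes the heated values were close to each other and below all freeze-dried values. Against fresh neonates in the same fit, H19 and Cdkn1c differed by -0.24 (adjusted p = 0.134) and -0.066 (adjusted p = 0.632). Nnat and Trappc9 fell by 0.29 and 0.31 (adjusted p = 0.0455 and 0.0407), and Trappc9 turned to 0.098 when the median over its probes replaced the brightest probe. Of 49 genes for DNA methylation and chromatin (median -0.031, or -0.050 with the slide block), Ezh2 and Hells fell by 0.32 and 0.53 (adjusted p = 0.0270 and 0.0283) and Tet2 rose by 0.44 (adjusted p = 0.0457). Ribosomal protein genes fell in 1 of 79 cases (Rpl18, -0.27 (adjusted p = 0.0495); median -0.032, or -0.054 with the slide block), and of 75 respiratory chain and 25 cholesterol synthesis genes 0 passed, with medians of 0.0069 and 0.046 (-0.041 and 0.044 with the slide block). At an unadjusted p under 0.05, 13 of the 75 and 9 of the 25 differed, against 23.9% of all tested genes. Of 37 splicing factors and Clk kinases (median -0.086, or -0.11 with the slide block), Raly and Pnisr fell by 0.77 and 0.36 (adjusted p = 0.0180 and 0.0281).

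Genes of tissues next to the brain were examined because dissection can vary. Of 27 choroid plexus genes (median 0.035, or -0.086 with the slide block) 1 fell (Otx2), and Ttr, the most typical of them, differed by 0.14 (adjusted p = 0.566). Of 27 meningeal genes (median -0.060, or -0.018 with the slide block) 1 fell: Postn was at -0.50, -0.51, -0.48 and -0.40 in heated and 0.084, -0.021, 0.20 and -0.20 in freeze-dried neonates (-0.49 ± 0.11 (SE, n = 4 and 4, adjusted p = 0.0314)). Skin, muscle, pituitary and erythroid lists had 0 changed genes of 10, 13, 4 and 16 tested (1, 0, 0 and 4 at an unadjusted p under 0.05). The medians were -0.62, -0.23, -0.097 and -0.27, and with the slide block -0.61, 0.32, -0.32 and -0.17, so the sign for muscle turned. Their list means ranged over -0.18 to -0.085 in heated and -0.16 to 2.24 in freeze-dried animals for skin, where freeze-dried 2 stood apart, and over -0.51 to -0.28 and -0.14 to 0.26 for muscle. For the pituitary they ranged over -0.35 to 0.93 and -0.32 to 1.06, with heated 1 and freeze-dried 1 high in Gh, and for erythroid genes over -0.40 to 0.29 and -0.23 to 0.39. Of 14 leukocyte genes (median -0.31, or -0.41 with the slide block) Gzma rose by 1.47 (adjusted p = 0.0254) and Lrg1 fell by 0.98 (adjusted p = 0.0406). Gzma was well above background on 3 of the 4 freeze-dried arrays and Lrg1 on 2 of the 4 heated arrays. Musk, a kinase of the neuromuscular junction, was at -3.45, -4.50, -4.46 and -5.25 against -6.93, -8.26, -6.13 and -7.39. It was well above background on 4 heated arrays and on 1 of the 4 freeze-dried arrays, so the size of the difference is not settled: the fit gave 2.76 (adjusted p = 0.0113), and the normexp background correction gave 0.91 (adjusted p = 0.00909). Some other genes also differed less under normexp, Dlx4 by 0.66, Htr1f by 0.45, Gzma by 0.61, Car9 by 0.57, Ciart by 0.45 and Lrrc34 by 0.56, which passed there too, and Atf3, Bnc2, Hells, Lrg1, Tap1 and Traf3ip1 by -0.35, -0.26, -0.20, -0.16, 0.22 and 0.19, which did not pass there. The partners of Musk, Agrn, Lrp4 and Dok7, differed by 0.050 (adjusted p = 0.729), 0.18 (adjusted p = 0.145) and 0.10 (adjusted p = 0.423). On the X chromosome 26 of 560 tested genes changed (4.64%), against 5.07% of all tested genes with a symbol. Of 4 tested Y-linked genes 0 passed (3 at an unadjusted p under 0.05), although their median difference was -4.06, or -2.47 with the slide block. Kdm6a, which escapes X inactivation, was at -2.67, -2.64, -2.63 and -2.85 against -3.03, -3.12, -3.19 and -2.95 (0.37 ± 0.097 (SE, n = 4 and 4, adjusted p = 0.0465)), and heated 4, the neonate with high Ddx3y, was the lowest heated animal.

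**Figure D5:**
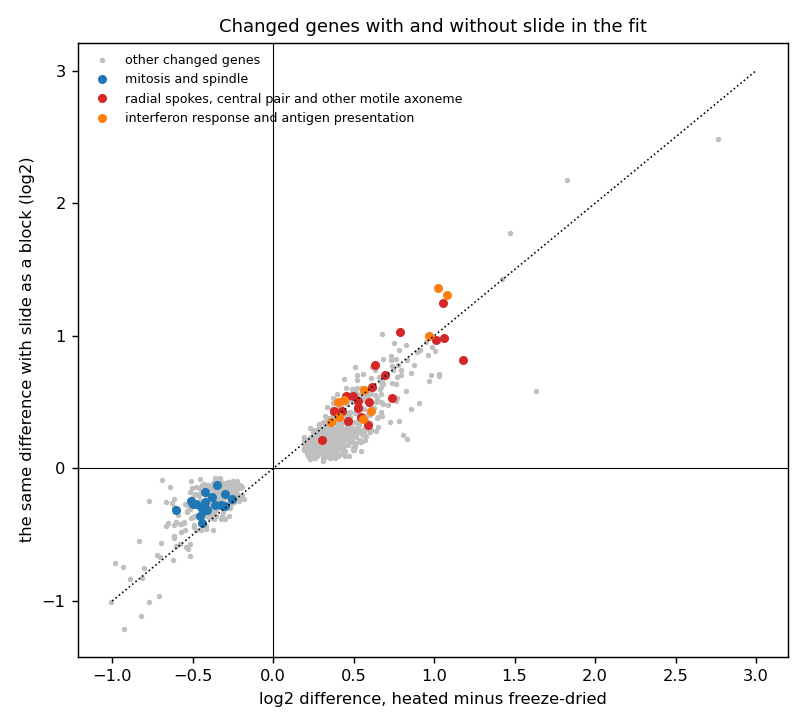
Log2 difference between heated and freeze-dried neonates (horizontal axis) against the same difference with slide as a block (vertical axis) for each of the 811 changed genes with a symbol, with mitosis, spoke and interferon genes in colour and a dotted line where both are equal. All points keep their sign, and all 19 mitosis genes, 12 of 20 spoke genes and 4 of 10 interferon genes lie closer to 0 with the block.

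Direct comparison with the irradiated group, which spans both slides, gave 258 genes that differed (0.974%), 145 higher and 113 lower in heated animals. Of the 71 spoke genes 4 were higher: Iqca by 0.53 (adjusted p = 0.0239), Ccdc153 by 0.75 (adjusted p = 0.0174), Crocc2 by 0.77 (adjusted p = 0.0302) and Tmem212 by 0.75 (adjusted p = 0.0464). Of the 29 dynein genes 0 passed and 11 had an unadjusted p under 0.05 (Dnali1 0.39 (adjusted p = 0.0507)), and of the 82 mitosis genes 1 was lower, Kif15 by -0.32 (adjusted p = 0.0182). Adm and Atf3 differed in opposite directions, by 1.10 (adjusted p = 0.00687) and -1.06 (adjusted p = 0.00586). Lrrc34, Ddn, Dlx4 and Hspa2 were higher by 0.52 (adjusted p = 0.0146), 0.61 (adjusted p = 0.0110), 0.94 (adjusted p = 0.0232) and 0.30 (adjusted p = 0.0387), and Otx2, Ska1 and Bnc2 were lower, by -0.35 (adjusted p = 0.0350), -0.46 (adjusted p = 0.0232) and -0.36 (adjusted p = 0.0190). For progenitor, oligodendrocyte and serotonin genes the median difference from the irradiated group was -0.032, -0.0046 and 0.0093. Irradiated minus freeze-dried, the medians of these lists were -0.091, 0.091 and 0.11, so much of their shift was shared. For mitosis and synapse genes the medians were -0.17 and 0.11 against irradiated, and -0.079 and 0.071 for irradiated minus freeze-dried. These comparisons share groups, so the values stand side by side and are not independent.

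Single animals weighed on the number of changed genes. It was 540, 228, 546 and 746 without freeze-dried 1 to 4, and 477, 204, 503 and 283 without heated 1 to 4, and it reached 1598 and 1601 without fresh 1 and fresh 2. Of the 1051, 168 passed in each of the 16 fits that omit an array, 130 of them with a symbol, including Iqca, Ccdc153, Crocc2, Deup1, Mki67, Cck, Mef2c, Tap2, Hspa2, Car9 and Ciart. The mitosis count fell from 19 to 2 without heated 2, to 3 without freeze-dried 2 and to 6, 8, 9 and 7 without freeze-dried 1, freeze-dried 3, heated 3 and heated 4, and without fresh 2 it was 30, with 1 gene rising. The spoke count was 20 and became 11 without heated 2 and 13 without heated 4 or freeze-dried 2, with 24 as its highest value (without fresh 1). The dynein count fell from 11 to 5 without heated 2 or freeze-dried 2 and to 6 without heated 4. For synapse genes the count of 9 became 1 without freeze-dried 2, heated 2 or heated 4, 2 without heated 1, 3 without freeze-dried 1, 4 without freeze-dried 3, 5 without heated 3 and 15 without fresh 1. For interferon genes the count of 10 became 2 without freeze-dried 2 or heated 2, 3 without heated 4, 4 without heated 1 and 5 without freeze-dried 1, freeze-dried 4 or heated 3. The replication count of 9 became 0 without freeze-dried 2, heated 2 or heated 4, 2 without freeze-dried 1, 3 without freeze-dried 3, 4 without heated 3, 14 without fresh 1 or fresh 3 and 16 without fresh 2, and the patterning count of 10 became 3, 4 and 6 when freeze-dried 2, heated 4 and heated 2 were left out in turn. With the mean of the Y-linked genes as a covariate, 142 genes passed, among them 17 spoke genes, 4 dynein genes, 3 interferon genes and 0 mitosis genes. When the 4 animals with low Hox genes were removed, a choice made after seeing the data, 11 genes passed.

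The counts of the smaller lists also rested on single arrays. The count of 4 for progenitor genes became 0 without freeze-dried 2, heated 2 or heated 4, 1 without freeze-dried 1, heated 1 or heated 3 and 7 without fresh 2. For astrocyte markers the count of 4 became 0 without freeze-dried 1, freeze-dried 2, heated 1 or heated 3, 1 without heated 2 or heated 4, 2 without freeze-dried 3 or irradiated 3 and 7 without fresh 2. The hypoxia count of 6 became 1 without freeze-dried 4 or heated 2, 2 without freeze-dried 1, freeze-dried 2, freeze-dried 3, heated 1, heated 3, heated 4 or irradiated 3 and 3 without irradiated 2. For striatal genes the count of 4 became 1 without freeze-dried 2 or heated 2 and 2 without freeze-dried 4 or heated 4, and for serotonin genes the count of 2 became 0 without freeze-dried 2, heated 1, heated 2 or heated 4 and 1 without freeze-dried 1, freeze-dried 4, fresh 4, irradiated 1, irradiated 2, irradiated 3 or irradiated 4. The count of 4 for imprinted genes became 0 without freeze-dried 1, freeze-dried 2, heated 1, heated 2, heated 3 or heated 4 and 2 without fresh 4 or irradiated 2, and that of 3 for chromatin regulators became 0 without freeze-dried 2, freeze-dried 3, heated 1, heated 2 or heated 4, 1 without heated 3 and 6 without fresh 2 or fresh 3. For glucocorticoid genes a count of 3 became 0 without freeze-dried 2, heated 2 or heated 4, 1 without freeze-dried 1 and 5 without fresh 2, for p53 targets a count of 3 became 1 without freeze-dried 2, heated 2 or heated 4, and for G1 cyclins and inhibitors a count of 3 became 1 without freeze-dried 2, heated 2 or heated 4. The stress response count of 7 became 3 without freeze-dried 2 or heated 2 and 4 without freeze-dried 1, heated 1 or heated 4, and the count of 6 for immediate early genes became 3 without freeze-dried 2 or heated 2. For repair genes the count of 2 became 0 without freeze-dried 1, freeze-dried 2, freeze-dried 3, heated 2, heated 4, fresh 4 or irradiated 3, 1 without heated 3 or irradiated 2, 4 without fresh 2 and 5 without fresh 3, and for chaperones 1 without freeze-dried 1, freeze-dried 2, heated 1, heated 2, heated 3 or heated 4. For clock genes the count of 1 became 2 without fresh 1, 3 without fresh 2 and 4 without fresh 3, with Ciart passing in every such fit. The counts for vascular, microglia, cerebellar, leukocyte and splicing genes (3, 2, 2, 2 and 2) became 0 in 9, 9, 5, 3 and 1 of the 16 fits that omit an array. Single calls were lost in 9 of these fits for the transport list, 12 for oligodendrocytes, 7 for meninges and 12 for ribosomal proteins. With the Y-linked covariate, 0 genes passed in the progenitor, astrocyte, striatal, serotonin, imprinted, p53 and repair lists.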

How the data were processed

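The RNA of 16 neonatal brains was measured on one-colour Agilent arrays, and each array gave 1 sample. The submitters' processing notes name Agilent Feature Extraction, version 11.0.1.1, with which the authors extracted the scans. The deposited scanner files hold background-subtracted spot intensity with quality flags (other values, 0 or 1 per spot). A deposited value table holds log2 signals whose making is not given in the sources used here, and it served as an alternative only. Spots of a probe were averaged after removal of control and outlier spots (56605 probes), log2 intensity was scaled to the array's own 75th percentile, and a probe was kept if every array of some group had it well above background (34261). The brightest probe stood for each gene or feature. Symbols came from RefSeq of GRCm38.p6 through the probe's accession (32994 probes with a symbol, 23611 without, the latter counted but not named). All 16 arrays were fitted with 4 group means in limma 3.58.1 (R 4.3.3, with the data.table package, version 1.17.8), 12 residual degrees of freedom, two-sided moderated tests and Benjamini-Hochberg adjustment over 26477 genes and features. The fit was tested on simulated data. Between-slide alternatives used the slide as a block, and other alternatives changed the background, scaling, filter, probe rule, covariates and arrays. No depth applies to arrays, and the number of arrays limits the precision. Figures were drawn with matplotlib 3.10.9. The gene lists and the rule for named genes were chosen with earlier results of these data known. The rule allows any list member, those with the smallest p first, the 20 rising and 20 falling genes with the smallest p, passed, without overlap and above background on all 8 arrays, and a few markers. Some list members that enter the counts are not reported here by name.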

Additional observations from a re-analysis of the deposited data

Results flagged for a closer look

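In groups of 4, single animals stood apart in 19 of 212 sets of values examined by Dixon's test at its 95% critical value, and chance alone gives about 5% of sets. Among heated neonates, Cdc20 was highest in heated 1 (1.09, others 0.98 to 1.00) and Car9 in heated 2 (-3.23, others -3.76 to -3.72). Cdkn1c was lowest in heated 3 (4.54, others 4.57), Atf3 lowest in heated 2 (-4.46, others -3.98 to -3.96), Kdm6a lowest in heated 4 (-2.85), Lrrc34 lowest in heated 4 (-3.38) and Pigt lowest in heated 2 (0.91). Among the freeze-dried neonates, Oas1a was highest in freeze-dried 3 (-1.75, others -2.24 to -2.20) and Igf2bp3 highest in freeze-dried 2 (0.83, others 0.63 to 0.65).

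The other flagged values are mean deviations of a gene list from the average of all arrays. Y-linked genes were at 1.88 in heated 4, against -3.61 to -2.97 in the other heated neonates. Heated 1 was high for pituitary markers (0.93, others -0.35 to -0.20) and low for X inactivation and escape genes (-0.13, others -0.091 to -0.084). Heated 2 was high for endothelium and pericyte markers (0.14, others 0.041 to 0.048). Heated 4 was high for G1 cyclins and inhibitors (-0.0050, others -0.053 to -0.051) and for DNA methylation and chromatin regulators (-0.0033, others -0.024 to -0.021). Freeze-dried 2 was high for skin markers (2.24, others -0.16 to -0.14) and low for cholesterol synthesis (-0.062, others -0.0037 to -0.0015). Freeze-dried 1 was high for regional patterning factors (0.20, others 0.078 to 0.098), and freeze-dried 4 was high for leukocyte markers (0.48, others 0.042 to 0.090).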

How the results depend on the processing

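For heated against freeze-dried, the 1051 changed genes became 700 under median scaling, 575 without the filter on dim probes, 2141 with the 8 arrays alone, 142 with the Y-linked covariate, 0 with the slide block (2092 at an unadjusted p under 0.05) and 0 in the deposited value table (1102 at an unadjusted p under 0.05), where all 988 changed genes that could be measured had the same sign. With the 4 low-Hox arrays removed, a setting chosen after seeing the data, 11 passed. Leaving out 1 array at a time gave 204 to 1601. The counts under normexp background, quantile normalization, the filter on all 16 arrays, the median over probes and trended robust variances were 1315, 1120, 1115, 1036 and 1387. These were partly other genes: of the 1051, 708, 940, 988, 886 and 985 passed again in these settings. Under median scaling 699 of the 1051 passed again, and without the filter on dim probes 375. For heated against irradiated, 258 genes became 119 under normexp, 91 without the filter, 64 with the Y-linked covariate, 112 in the deposited table and 12 with the 4 low-Hox arrays removed, and 45 to 388 with 1 array left out. Trappc9 turned to 0.098 with the median over its probes. The causes of these shifts were not tested.

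The replicate numbers are shared between groups. With the replicate block, 1253 genes changed against freeze-dried and 162 differed from irradiated. The deviations of same-numbered heated and freeze-dried animals correlated at -0.036, 0.19, 0.17 and -0.12 across genes. Heated 2 and heated 4 both correlated best with freeze-dried 2 (0.19 and 0.24), all being low in Hox genes. The correlations therefore cannot settle whether the numbers pair the animals. Not every animal correlated best with its own number.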
